A study of Mus musculus and Homo sapiens with 18 samples.

Results

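The Phc1-sg2 sites are the regions where catalytically inactive Cas9 (dCas9) was found in mouse embryonic stem (ES) cells given the single guide RNA (sgRNA) Phc1-sg2. All 663 peaks of the list deposited for that guide were taken, with no further selection. The 16 lists of the series, mouse and human, held 53617 peaks. Its 12 mouse lists, the only ones used here, held 34610. The cells were V6.5, an ES line of strain C57BL/6-129, with a stably integrated dCas9 gene, and they received 20 ug of sgRNA by lipid transfection. An antibody against the HA tag of dCas9 pulled down the bound DNA, which was sequenced (ChIP-seq). The lists compared with it came from the same line given 20 ug of Phc1-sg1 (2948 peaks), or Nanog-sg3 at 20 ug (replicate 1 with 5957 peaks and replicate 2 with 5862), 2 ug (2698), 0.2 ug (166) or 0.02 ug (122). A further list came from V6.5 cells without the integrated gene, given 20 ug of Nanog-sg3 and 20 ug of dCas9 together, and is called transient here (16119 peaks). Lists used only for the closing distances were Nanog-sg2 in the stable line at 10, 20 and 40 ug of sgRNA (20, 26 and 26 peaks), and the input DNA of the transient cells, taken without immunoprecipitation (3 peaks). All these cells carried dCas9 with its tag, so none is a control without the protein. The sources used here give neither the promoter of the integrated gene nor whether the line is 1 clone. Phc1-sg2 had 1 library, so its values have no replicate error. No read counts come with the lists, so depth is unknown. The mouse no-sgRNA immunoprecipitate was not analysed here.

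Cas9 is directed to DNA by base pairing between its guide and a strand of the target, next to a short motif that the protein itself reads. Pairing begins beside that motif, so DNA that matches only this seed part of the guide can be bound without being cut, and binding sites of dCas9 outside the intended target are known from many guides. Accessible chromatin is known to favour such binding. Phc1 encodes a subunit of Polycomb repressive complex 1, which keeps developmental genes silent, and is active in ES cells. Protein-coding neighbours of Phc1 in RefSeq (GRCm38.p6) are M6pr, for a receptor that sorts lysosomal enzymes, and Rimklb, and Nanog lies 7 protein-coding genes away on the same chromosome. The peaks are in the older build mm9, so they were not placed on genes and no sequence was read from under them.

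The highest-scoring site lay on chromosome 6 between 122291034 and 122292993 (mm9). It had the authors' peak score of 1606.98, where the score is a number without a stated definition that the list gives for each peak. It was 1960 bp wide, which made it the second widest of the 663 peaks and 2.74 times the median width. It overlapped the highest-scoring Phc1-sg1 peak by 1130 bp, which is 57.7% of the Phc1-sg2 peak and 56.8% of the Phc1-sg1 peak, and the centres of both were 844.5 bp apart. The nearest other Phc1-sg2 peaks were 6.14 Mb before it (score 390.29) and 3.18 Mb after it (score 98.81). Standing apart was common in this list, as 353 of the 663 peaks (53.2%), this site among them, lay over 1 Mb from any other. In the transient Nanog-sg3 list, a peak lay 1.77 kb away, between 122294761 and 122295263. Its score of 80.82 (rank 9660 of 16119) was below that list's median of 91.27. In Nanog-sg3 replicate 1 the peak nearest the site was 45.2 kb away (score 69.82).

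Most scores were far below that of this site. The second score was 1240.49, on chromosome 4 between 21749522 and 21750635, so that the highest was 1.3 times the second and 16.1 times the median of 100.05. Next came chromosome 2 between 51892297 and 51893088 (1222.29) and chromosome 11 between 115323312 and 115324163 (1212.30). These 4 were the only peaks of the list with a score of at least 1000. They lay on 4 different chromosomes. The other 6 of the 10 highest were on chromosome 13 between 22005934 and 22007278 (946.51), chromosome 10 between 66442289 and 66443210 (812.57), chromosome 16 between 32683225 and 32684111 (739.16), chromosome 5 between 45918638 and 45919678 (669.53), chromosome 9 between 52106035 and 52107200 (658.94) and chromosome 15 between 43898712 and 43899224 (633.77). No chromosome held more than 1 of the 10. Only 18 peaks (2.71%) scored at least 500 and 117 (17.6%) at least 200, while 334 (50.4%) scored at least 100. The 10 highest peaks held 10.0% of the summed score and the 100 highest held 41.5%. The lowest score was 50.05, on chromosome 9 between 77809711 and 77810349, and the middle 50% of peaks scored from 70.94 to 162.96.

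The sites were narrow. Widths ran from 283 to 2170 bp with a median of 716 bp, and the middle 50% spanned 557 to 885 bp. Of the 663 peaks, 110 were under 500 bp, 263 were 500 to under 750 bp, 202 were 750 to under 1000 bp, 81 were 1000 to under 1500 bp and 7 were 1500 bp or more. Together the peaks covered 487.8 kb. The widest was on chromosome 12 between 107683989 and 107686158 (2170 bp, score 180.11) and the third widest on chromosome 8 between 125006689 and 125008507 (1819 bp, score 58.77), so a wide peak was not always a high one. The narrowest, also on chromosome 8, lay between 49191459 and 49191741 (283 bp, score 95.13). The medians of the other lists were 886 bp for Phc1-sg1, 859 and 946 bp for Nanog-sg3 replicates 1 and 2, 592, 532.5 and 602 bp at 2, 0.2 and 0.02 ug, and 365 bp in the transient list. The Phc1-sg2 median thus lay within the range of these lists.

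Width rose with score inside the list. With the peaks in 4 groups of nearly equal size by score, the median width was 609 bp in the lowest group, 656 and 731 bp in the next groups and 847.5 bp in the highest. Across the 663 peaks the Spearman correlation of width and score was 0.38, and Pearson's correlation of the logarithms was also 0.38. All points come from 1 library and 1 run of the peak caller, and the peaks are not replicates. The same Spearman correlation was 0.11 in the Phc1-sg1 list, 0.27 and 0.30 in Nanog-sg3 replicates 1 and 2, 0.19, 0.04 and 0.12 at 2, 0.2 and 0.02 ug, and 0.31 in the transient list. No test between these correlations was made.

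**Figure D1:**
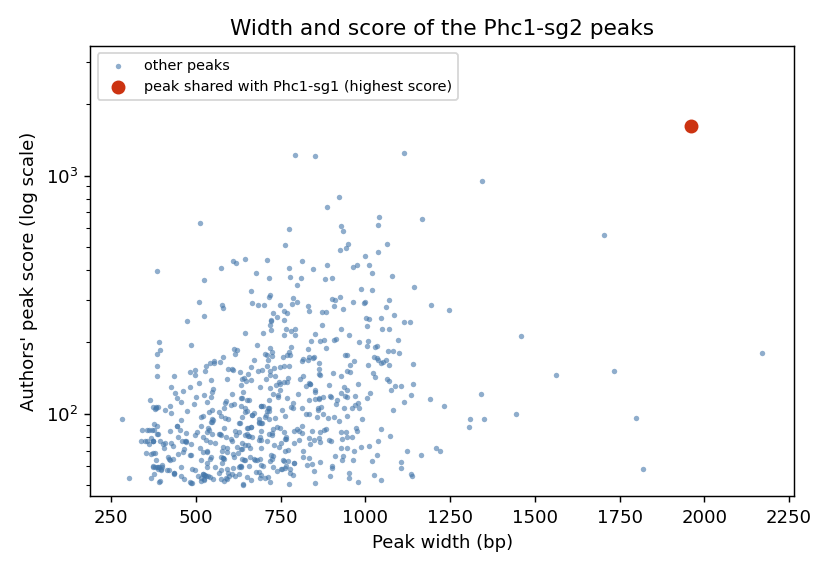
Width of each of the 663 Phc1-sg2 peaks in bp (horizontal) against the authors' peak score on a log axis (vertical), with 1 point per peak. The peak on chromosome 6 that overlaps the highest Phc1-sg1 peak (red) has the highest score, 1606.98, at 1960 bp, while the widest peak, at 2170 bp, scores 180.11.

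Few Phc1-sg2 sites lay side by side in this list of 663 peaks. The median distance between neighbouring peaks, from edge to edge, was 2113 kb over 643 gaps, with the middle 50% from 824.0 to 5027 kb. No gap was 1 kb or less, 4 were 10 kb or less, 27 were 100 kb or less and 188 were 1000 kb or less. Hence 8 of the 663 peaks (1.21%, exact Clopper-Pearson 95% interval 0.522 to 2.36%) had another within 10 kb and 54 (8.14%, 6.18 to 10.5%) within 100 kb, while 353 (53.2%) were over 1 Mb from any other. Intervals here and below cover counting error only. Such shares depend on the length of a list. Within 10 and 100 kb they were 5.80 and 40.9% for Phc1-sg1 and 12.5 and 57.0% for Nanog-sg3 replicate 1. In the shorter lists at 0.2 and 0.02 ug they were 0% within 10 kb, and 1.81 and 3.28% within 100 kb. All runs of neighbours chained within 10 kb or within 100 kb held exactly 2 peaks.

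The closest pair was on chromosome 9, where peaks from 88315411 to 88316093 (score 284.81) and from 88317231 to 88317921 (90.96) were 1138 bp apart. On chromosome 8 the peaks from 119771900 to 119772827 (83.47) and from 119774754 to 119775478 (181.55) were 1927 bp apart. On chromosome 11, those from 33838779 to 33839161 (64.04) and from 33845001 to 33845349 (76.85) were 5840 bp apart. In each of these 3 pairs the members differed in score, by factors of 3.13, 2.18 and 1.2. The fourth pair within 10 kb was on chromosome 15 between 99814521 and 99825181, with scores of 53.46 and 51.29. The highest score among these 8 peaks was 284.81.

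At the other end, the peak on chromosome 14 between 123610404 and 123610927 (score 52.42) was 22.9 Mb from any other Phc1-sg2 peak. A peak on chromosome X between 90934737 and 90935349 (66.07) was 18.6 Mb away from the next, and on chromosome 2 one between 4531682 and 4532593 (298.85) was 18.1 Mb away. The widest stretch without a peak between neighbours was 41.7 Mb, on chromosome 9 from 4705924 to 46441952, followed by 35.4 Mb on chromosome X and 31.2 Mb on chromosome 16. Gaps over 10 Mb numbered 56 of 643.

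Longer lists have smaller gaps, so the median gap was also taken relative to the mean spacing, the summed chromosome spans over the number of peaks. This ratio was 0.53 for Phc1-sg2, 0.36 for Phc1-sg1, 0.38 and 0.33 for Nanog-sg3 replicates 1 and 2, 0.25, 0.38 and 0.36 at 2, 0.2 and 0.02 ug, and 0.30 in the transient list. A lower ratio goes with more peaks packed into part of the genome. Of these 8 lists the Phc1-sg2 list had the highest value, without a test of the difference. Peaks with a neighbour within 100 kb had a median score of 114.34 and a median width of 721.5 bp, against 98.39 and 715 bp for the other 609, whose scores overlapped widely with theirs (middle 50% from 77.10 to 186.84 against 70.00 to 158.86).

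Many names in the list belong to several peaks. The names end in a running number, and 663 peaks carried 506 distinct names: 381 names stood for 1 peak each, 99 for 2, 21 for 3, 4 for 4 and 1 for 5. Thus 282 peaks (42.5%) shared a name with another, against 17.2% in the Phc1-sg1 list, 32.7% and 38.0% in Nanog-sg3 replicates 1 and 2, 31.0, 8.43 and 1.64% at 2, 0.2 and 0.02 ug and 27.2% in the transient list. Peaks that shared a name were not pieces of 1 region. No position occurred more than once. Of the 125 repeated names, 110 had each of their peaks on a different chromosome, 8 had some on 1 chromosome and 7 had all on 1 chromosome. The 32 peaks that shared both name and chromosome were at least 16.9 Mb apart, from centre to centre. With the smallest such distance taken for each name on a chromosome, the median was 54.4 Mb. Peaks with a repeated name had a median width of 718 bp and a median score of 98.00, against 711 bp and 102.05 for the others. Number 113 was the most frequent, with 4 peaks on chromosome 1 and 1 on chromosome 10, where it stood for the peak from 62052603 to 62053320 (score 314.96). Numbers 1000, 1001, 1023 and 1151 followed, tied at 4 peaks each. The 4 peaks numbered 1000 lay on chromosomes 7, 11, 15 and 18.

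Along the chromosomes the numbers rose in order, in text order of the chromosome names, and repeats came from places where they started again. Numbers fell between neighbours at 11 of 643 places, on 6 chromosomes. Of the 10 that did not involve the chromosome 6 site, 4 fell to 1000 or 1001 (on chromosomes 7, 15 and, at 2 places, 18), 4 to numbers from 101 to 105 (on chromosomes 1 and 10) and 2 to 11 or 12 (on chromosome 1). On chromosome 11 the number rose at 1 step from 276, at a peak ending at 100057957, to 1000, at one starting at 100161389. On chromosome 1 it likewise rose from 31, at a peak ending at 83035605, to 100, at one starting at 89803034. In all, 616 peaks (92.9%) had a number whose first digit was 1, and the share was 69.2% for Phc1-sg1, 67.7 and 80.3% for Nanog-sg3 replicates 1 and 2, 99.3, 98.8 and 98.4% at 2, 0.2 and 0.02 ug and 67.4% in the transient list. Since numbers start again, the highest of them is no count of the peaks called before the list was made. The chromosome 6 site also stood out of order: it carried 2151, the highest number in the list, between peaks numbered 1689 and 1697, and it was the first line of the list. The next highest number was 1771. The other lines of the list were not in chromosome order either, and fell into 84 blocks over 20 chromosomes. The first line of the Phc1-sg1 list was likewise its peak at this position, numbered 13346, below that list's highest number of 14292. Nanog-sg3 replicate 1 also began with a chromosome 6 peak, at another position, which carried that list's highest number, 13680.

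**Figure D2:**
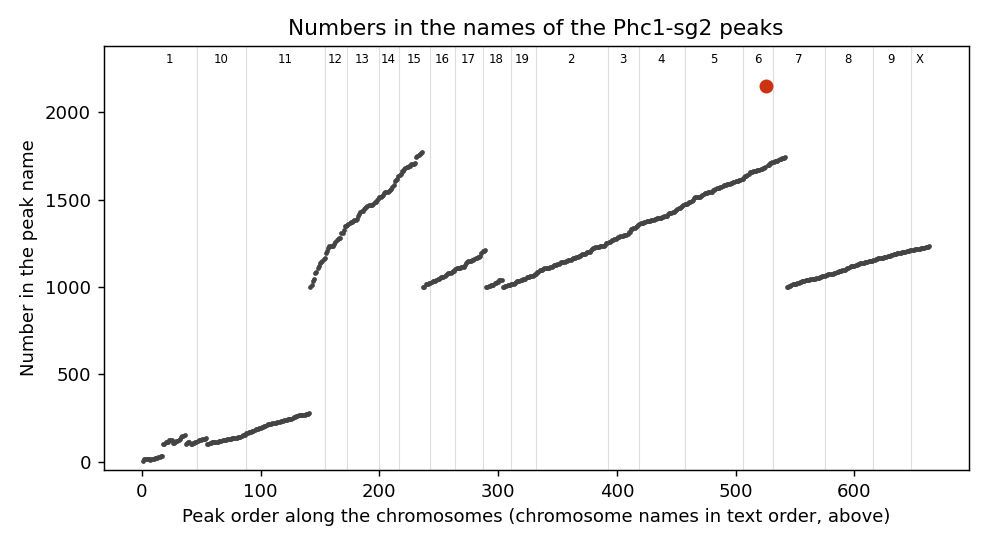
Number in the name of each Phc1-sg2 peak (vertical) against the order of the peaks along the chromosomes (horizontal), with chromosome names in text order at the top and grey lines between chromosomes. Numbers rise within stretches and start again at 11 or 12, at 101 to 105 and at 1000 or 1001, and the chromosome 6 site (red, number 2151) lies apart from its neighbours.

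Between breaks, the listed peaks took only part of the numbers. On 14 chromosomes the numbers ran without a break (without the chromosome 6 site), and there 415 peaks were listed over 1432 numbers, 29.0% (26.6 to 31.4%). The share ran from 11.8% on chromosome 12 (18 of 152, 7.17 to 18.1%) to 72.7% on chromosome X (16 of 22, 49.8 to 89.3%). Chromosome 9 had 55.2% (32 of 58), chromosome 2 34.5% (61 of 177) and chromosome 14 14.0% (17 of 121). In the Phc1-sg1 list chromosomes 12 and 14, at 33.5 and 29.7%, and chromosome 2, at 12.6%, stood in the other order. The share of numbers that were listed thus differed between chromosomes within each list. Close neighbours had consecutive numbers in all 27 pairs within 100 kb (exact 95% interval of the share 87.2 to 100%), and in 99 of 455 pairs over 1000 kb apart (21.8%). No number was skipped between the members of a close pair. Why numbers start again or are missing was not tested.

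Phc1-sg2 sites occurred on all 19 autosomes and chromosome X, and none was listed on chromosome Y. Chromosome 11 held the most, 67 peaks or 10.1% of the list (7.92 to 12.7%), on 4.62% of the span covered by all mouse lists. Chromosome 2 followed with 61 (9.2%, 7.11 to 11.7%, on 6.90% of the span), then chromosome 5 with 49, chromosome 1 with 46 and chromosome 7 with 44. The fewest were on chromosome X with 16 (2.41%, 1.39 to 3.89%, on 6.29% of the span), chromosome 14 with 17 and chromosome 12 with 18. Per Mb of span, chromosome 11 had 0.55 peaks, chromosome 19 0.343, chromosome 2 0.336, chromosome 14 0.137 and chromosome X 0.0965, against a mean of 0.252. The highest density was 5.7 times the lowest.

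Chromosome 11 was above the mean in the other lists too. Relative to each list's own mean density, chromosome 11 had 2.19 times the mean for Phc1-sg2, 1.17 for Phc1-sg1, 1.51 and 1.60 for Nanog-sg3 replicates 1 and 2, 1.70, 1.17 and 1.42 at 2, 0.2 and 0.02 ug, and 2.15 in the transient list. The share of all peaks on this chromosome was 5.43% for Phc1-sg1 and 6.97 and 7.39% for the replicates. It was 7.86, 5.42 and 6.56% at 2, 0.2 and 0.02 ug and 9.92% in the transient list. The Phc1-sg2 interval of 7.92 to 12.7% covers the last and lies above the other 6 shares, for 2 ug only narrowly. Those shares are given without intervals, and at 0.2 and 0.02 ug they rest on 9 and 8 peaks. Chromosome X was below the mean in all 8 lists, at 0.38 times for Phc1-sg2 and 0.24 for Phc1-sg1. Chromosome 14 was low for Phc1-sg2 (2.56% of peaks, 1.5 to 4.07%) and the transient list (1.88%), and held 4.24 to 7.38% of the peaks of the other 6 lists. Over 20 chromosomes the densities of the Phc1-sg2 list had a Pearson correlation of 0.90 with the transient list, 0.78 and 0.83 with replicates 1 and 2, 0.77 with 2 ug, 0.45 and 0.43 with 0.2 and 0.02 ug, and 0.60 with Phc1-sg1. Without chromosomes 11 and X these values were 0.73, 0.62, 0.69, 0.59, 0.42, 0.40 and 0.58 over 18 chromosomes. The lists share the cell line, the antibody and the genome that reads can be placed on, and the correlations are given as description.

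Sites on chromosome 11 were also wider. Their median width was 876 bp (middle 50% from 715.5 to 1035.5 bp) against 700.5 bp (547 to 863.25 bp) for the other 596 peaks, a ratio of 1.25. The median score was the same on both sides, 100.05 and 100.30. The ratio of widths was 0.94 for Phc1-sg1, 1.08 and 1.09 for the Nanog-sg3 replicates, 1.03, 0.96 and 1.08 at 2, 0.2 and 0.02 ug and 1.11 in the transient list. Among the 20 chromosomes the median width ran from 606.5 bp on chromosome 3 to these 876 bp, with 809 bp on chromosome 16 next. Median scores ran from 72.58 on chromosome 14 to 166.84 on chromosome 12, the chromosomes with 17 and 18 peaks. The highest peak of chromosome X scored 188.36, and that of chromosome 18 scored 154.57, the lowest among the chromosomes.

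**Figure D3:**
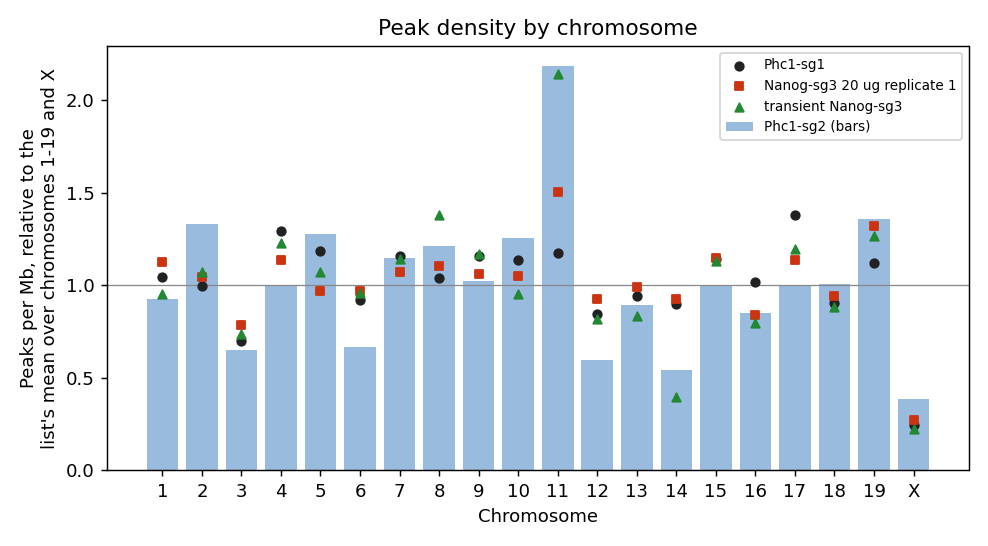
Peaks per Mb of chromosome span, divided by the mean of the same list over chromosomes 1 to 19 and X, for Phc1-sg2 (bars), Phc1-sg1, Nanog-sg3 20 ug replicate 1 and transient Nanog-sg3 (points). Phc1-sg2 is at 2.19 on chromosome 11, close to the transient list at 2.15 and above Phc1-sg1 at 1.17, and all 4 lists are lowest on chromosome X.

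Sites of Phc1-sg2 coincided with almost no site of the other guides. Of the 663 peaks, 2 overlapped a Phc1-sg1 peak by at least 1 bp (0.302%, 0.0366 to 1.09%, and 0.0678% of the 2948 Phc1-sg1 peaks). Against Nanog-sg3 the overlaps were 1 and 2 for replicates 1 and 2, 1 at 2 ug, 0 at 0.2 and 0.02 ug (each 0 to 0.555%) and 4 in the transient list (0.603%, 0.165 to 1.54%). In all, 7 different Phc1-sg2 peaks overlapped a peak of any of the 7 lists (1.06%, 0.426 to 2.16%). For scale, 61.3% of the Nanog-sg3 replicate 1 peaks overlapped a replicate 2 peak, which compares 2 libraries of 1 guide. Between guides, Phc1-sg1 peaks overlapped replicate 1, replicate 2, the 2 ug list and the transient list at 0.204, 0.475, 0.102 and 0.509%. The Phc1-sg2 shares for these lists were 0.151, 0.302, 0.151 and 0.603%. Such low overlap was thus not particular to Phc1-sg2.

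The other 6 overlapping peaks also shared only part of their length with the other list. On chromosome 6, the peak from 65028838 to 65029649 (score 166.10) shared its first 49 bp with the Phc1-sg1 peak from 65028061 to 65028886 (score 95.37). A single site recurred over several Nanog-sg3 lists, on chromosome 11 between 74520110 and 74521215, with the low score of 59.22 (rank 586). It overlapped replicate 1 by 486 bp, replicate 2 by 496 bp, the 2 ug list by 204 bp and the transient list by 98 bp, where those peaks scored 108.91, 98.07, 58.53 and 182.84. On chromosome 17, the peak from 34254794 to 34255663 (106.64) shared 293 bp with a replicate 2 peak of 5621 bp. The other 3 overlapped the transient list only: chromosome 10 between 18887004 and 18888027 (148.40, by 99 bp), chromosome 11 between 94426172 and 94427135 (292.98, by 282 bp) and chromosome 13 between 38084479 and 38085411 (66.21, by 84 bp). Without overlap, the nearest approaches were 125 bp to a Phc1-sg1 peak on chromosome 9 (63968494 to 63969272, score 58.29) and 161 bp to a transient peak on chromosome 8 (81404958 to 81405643, score 92.69). A site on chromosome 18 that lay 151 bp from a transient peak is counted and not described.

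The distance to the nearest Phc1-sg1 peak had a median of 217.1 kb (middle 50% from 71.8 to 622.2 kb). It was 1 kb or less for 5 sites, 10 kb or less for 32 (4.83%, 3.32 to 6.75%) and 100 kb or less for 210 (31.7%, 28.1 to 35.4%), and it exceeded 1 Mb for 108. By chromosome the median ran from 98.8 kb on chromosome 7 to 946.7 kb on chromosome X. Among the 10 highest sites, those on chromosomes 16 and 4 had a Phc1-sg1 peak 12.7 and 25.6 kb away. Those on chromosomes 15, 5 and 9 had none within 4028, 2171 and 1317 kb. Measured the other way, 9.12% of Phc1-sg1 peaks had a Phc1-sg2 peak within 100 kb and 1.09% within 10 kb. For Nanog-sg3 replicate 1 peaks these shares were 8.34 and 0.974%, so the other Phc1 guide was little nearer than Nanog-sg3.

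Nanog-sg3 peaks were nearer where they were more numerous. The median distance was 99.8 kb to replicate 1 (middle 50% from 38.0 to 253.6 kb) and 104.1 kb to replicate 2, 295.2 kb at 2 ug, 5534 kb at 0.2 ug, 7095 kb at 0.02 ug and 39.3 kb to the transient list. Within 100 kb lay 332 sites for replicate 1 (50.1%, 46.2 to 53.9%), against 57.7% of the Phc1-sg1 peaks measured in the same way. For replicate 2 there were 325 (49.0%, 45.2 to 52.9%, against 58.5% of Phc1-sg1 peaks). At 2 ug there were 175 (26.4%, 23.1 to 29.9%, against 37.4%). At 0.2 ug there were 17 (2.56%, 1.5 to 4.07%, against 2.88%) and at 0.02 ug 12 (1.81%, 0.939 to 3.14%, against 2.2%). In the transient list there were 485 (73.2%, 69.6 to 76.5%, against 83.5%). The share was lower for Phc1-sg2 than for Phc1-sg1 with each of the 6 lists, which share 1 guide, and the Phc1-sg2 interval left out the Phc1-sg1 share for the 4 larger ones. No test of this difference was made, as each Phc1 guide had 1 library.

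**Figure D4:**
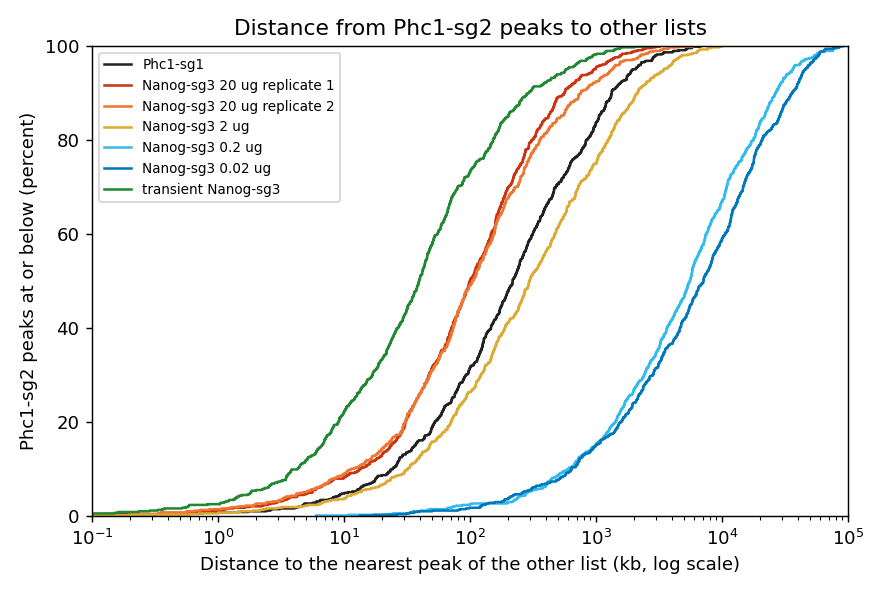
Percent of the 663 Phc1-sg2 peaks (vertical) whose nearest peak in another list is at or below a distance in kb (horizontal, log axis), with 1 line for each of 7 lists and overlapping peaks placed at the left edge. The median distance is 39.3 kb for the transient Nanog-sg3 list, 99.8 and 104.1 kb for the 20 ug replicates, 217.1 kb for Phc1-sg1 and 5534 and 7095 kb for the lists at 0.2 and 0.02 ug.

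The order of these distances follows the length of the lists. The median distance was 0.24 of the mean spacing of the Phc1-sg1 list, 0.23 for both replicates, 0.30 at 2 ug, 0.35 at 0.2 ug, 0.33 at 0.02 ug and 0.24 for the transient list. On this scale the list for the other Phc1 guide was no nearer than the 20 ug lists of Nanog-sg3. From Phc1-sg1 peaks the ratios were 0.18 and 0.17 to the replicates, 0.17 at 2 ug, 0.26 and 0.29 at 0.2 and 0.02 ug and 0.17 to the transient list. Within 10 kb, 8.30% and 9.05% of Phc1-sg2 sites had a peak of replicate 1 and replicate 2, 3.77% one at 2 ug and 22.2% one in the transient list. At 0.2 ug 1 site had one and at 0.02 ug none. From Phc1-sg1 peaks the 10 kb shares were 9.36 and 10.7% for the replicates, 6.17% at 2 ug and 23.8% for the transient list. The Phc1-sg2 interval covered that share for both replicates (6.31 to 10.7% and 6.98 to 11.5%) and the transient list (19.1 to 25.5%). At 2 ug it lay below (2.45 to 5.52%). The lower share seen within 100 kb was thus less clear within 10 kb. Over the 6 Nanog-sg3 lists, 158 sites (23.8%) had a peak of any list within 10 kb, and 16 sites had one of both replicates, of the 2 ug list and of the transient list. These 16 lay on 10 chromosomes, with scores from 51.88 to 516.49. Within 100 kb, 509 sites (76.8%) had a peak of any Nanog-sg3 list and 3 had one of all 6. These counts over several lists were not made from Phc1-sg1 peaks, so they have no scale beside them.

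The 3 sites near all Nanog-sg3 lists were on chromosome 11 between 98736762 and 98737487 (score 82.81) and between 100991433 and 100992203 (141.17), and on chromosome 4 between 149294879 and 149295710 (187.68). They were chosen after their values were seen. The second of them was 7.46, 7.42, 7.53 and 1.46 kb from peaks of replicate 1, replicate 2, 2 ug and the transient list. None of the 3 was within 100 kb of a Phc1-sg1 peak, nor were 453 of all 663 sites. Of the 210 sites within 100 kb of a Phc1-sg1 peak, 154 (73.3%) were also within 100 kb of a 20 ug Nanog-sg3 peak, as were 58.8% of all 663. Sites with no peak of either kind within 100 kb numbered 217 (32.7%).

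Among the highest sites, that on chromosome 2 (score 1222.29) lay 309 bp from a replicate 1 peak but 182.5 kb from the nearest of replicate 2. That on chromosome 13 (946.51) lay 3.31 kb from a peak of each replicate and 3.72 kb from a transient peak. Of the 100 highest sites, 38, 54, 56 and 76 had a peak of Phc1-sg1, replicate 1, replicate 2 and the transient list within 100 kb. The shares of the other 563 sites were 30.6, 49.4, 47.8 and 72.6%, each inside the interval of the first (28.5 to 48.3, 43.7 to 64.0, 45.7 to 65.9 and 66.4 to 84.0%). At 2 ug the shares lay further apart, 38 of the 100 highest (28.5 to 48.3%) against 24.3% of the others (20.8 to 28.1%). At 0.2 and 0.02 ug 4 and 1 of the 100 highest were within 100 kb, against 2.31 and 1.95% of the others.

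Wider sites had peaks of other guides nearby more often. With the list in 4 groups of nearly equal size by width, 22.3% of the narrowest group (283 to 556 bp, 16.2 to 29.4%) had a Phc1-sg1 peak within 100 kb, against 25.3 and 34.5% of the next groups and 44.6% of the widest (885 to 2170 bp, 36.9 to 52.5%). For replicate 1 the shares from narrowest to widest were 33.7, 49.4, 60.0 and 57.2%, for replicate 2 they were 35.5, 47.0, 57.6 and 56.0%, and for the transient list 60.2, 69.3, 78.8 and 84.3%. The intervals of the narrowest and the widest group did not overlap for any of these 4 lists. This is no test, as the intervals count peaks of 1 library, which are not replicates. All of these lists but Phc1-sg1 share the guide Nanog-sg3. With chromosome 11 left out the shares of the narrowest and widest group were 22.6 and 48.9% for Phc1-sg1, 32.1 and 57.1% for replicate 1 and 60.4 and 82.0% for the transient list.

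At both levels of score, wider sites had the higher share. Among sites above the median score, 40.1% of those wider than the median (87 of 217) and 25.4% of the narrower (29 of 114) had a Phc1-sg1 peak within 100 kb. Among sites at or below the median score the shares were 38.6% (44 of 114) and 22.9% (50 of 218). For replicate 1 the shares of wider and narrower sites were 58.1 and 38.6% above the median score and 59.6 and 43.1% at or below it, and for the transient list 83.4 and 64.9% above it and 78.1 and 64.7% at or below it. The intervals of wider and narrower sites overlapped in 2 of these 6 comparisons: Phc1-sg1 above the median score (33.5 to 46.9% and 17.7 to 34.4%) and the transient list at or below it (69.4 to 85.3% and 57.9 to 71.0%). These comparisons of intervals are description and no test. In 4 groups by score, from lowest to highest, the share near a Phc1-sg1 peak was 22.3, 34.3, 32.1 and 38.0%. Near a replicate 1 peak it was 48.8, 48.8, 47.9 and 54.8%, near a replicate 2 peak 45.2, 51.8, 45.5 and 53.6% and near a transient peak 64.5, 74.1, 73.9 and 80.1%. The lowest score group had the lowest share for Phc1-sg1 and the transient list. For replicate 2 the lowest and the third group held the same number of such sites (75 of 166 and 75 of 165). For replicate 1 the third group had the lowest share. The rise with width was also seen in the Phc1-sg1 list, where 47.6% of the narrowest and 63.6% of the widest group were within 100 kb of a replicate 1 peak and 74.4 and 90.4% within 100 kb of a transient peak. It is thus not a feature of Phc1-sg2 sites alone. The cause was not tested, and peaks of 1 library are not replicates.

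**Figure D5:**
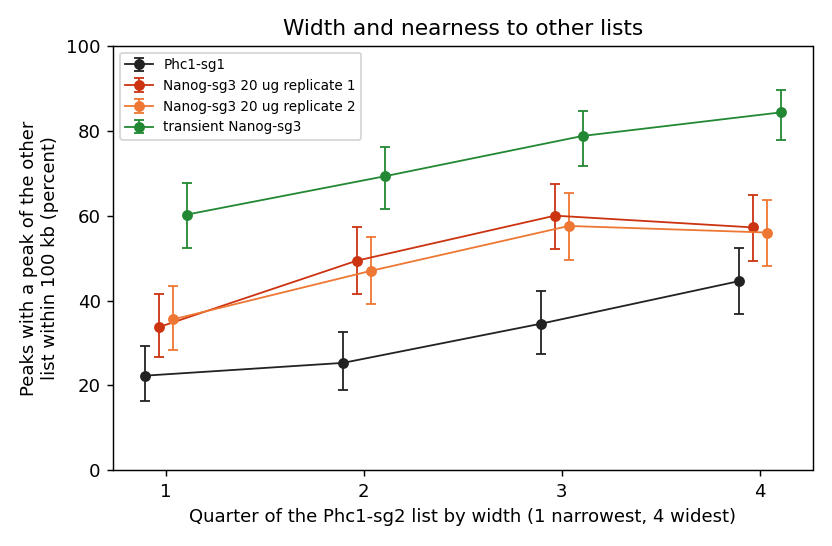
Percent of Phc1-sg2 peaks with a peak of another list within 100 kb (vertical), for 4 groups of 165 or 166 peaks by width (horizontal), with exact Clopper-Pearson 95% intervals that cover counting error only. For Phc1-sg1 the percent is 22.3 in the narrowest group and 44.6 in the widest, and for the transient list 60.2 and 84.3.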

How the data were processed

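The authors deposited 1 peak list for each sample used. Bowtie and the build mm9 are named, per the submitters' processing notes; the peak names carry the prefix of MACS, a program that calls peaks. The version used, control, threshold and any later filter are not given in the sources here. Each deposited peak has a position, a name and an unnamed score by the authors, used here to rank and describe peaks within a list. Starts were taken to count from 0 in the lists and are printed from 1. Of 18 samples, 12 mouse lists were used, grouped by their labels; the human lists were not.

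Distances are from edge to edge on 1 chromosome, computed with Python 3.11.15, pandas 2.3.3 and NumPy 2.4.6 and checked on planted peaks. A chromosome's span is the highest peak end in any mouse list. Shares carry exact Clopper-Pearson 95% intervals. No significance test was made, since Phc1-sg2 had 1 library. Named positions are the 10 highest scores, the 3 widest and the narrowest, the lowest score, the 3 closest pairs, the 3 most isolated, the longest run within 10 kb, the 3 commonest names and up to 10 positions overlapping or within 1 kb of another list, nearest first; positions on chromosome 18 are counted only. The members, lists and rules were chosen with earlier results of these data known. Alternatives were a score of at least 100, merging within 500 bp, 1 peak per name, other windows and overlap rules, and leaving out each 20 ug replicate. Leaving out chromosomes 11 and X from densities, or chromosome 11 from width groups, was chosen after seeing the data.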

Additional observations from a re-analysis of the deposited data

How the results depend on the processing

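No read depth, replicate or matched no-sgRNA list stood behind the Phc1-sg2 values, and the threshold that made the list is not stated. Merging within 500 bp joined 0 peaks. With a score of at least 100 the list held 334 peaks, 86 of them with a repeated name, at a median width of 790 bp and a median gap of 4178 kb; 0% then had a neighbour within 10 kb, and the median distance was 245.1 kb to Nanog-sg3 at 2 ug and 4710 kb at 0.2 ug. With 1 peak per name, the neighbour share was 0.395%, the median gap 2410 kb and the chromosome 11 share 12.8%. Peaks that share a name are separate regions, so this setting leaves out unrelated sites because of their numbers. Its values therefore do not show how firm the results are. The neighbour share was 0% at 1 kb and 8.14% at 100 kb. With an overlap of at least 50% of each peak required, 1 peak overlapped Phc1-sg1 and 0 any Nanog-sg3 list, and 0 had centres within 200 bp of a peak in any of the 7 lists. With Phc1-sg2 scores of at least 100, overlaps were 0 with replicate 1 and at 2 ug, 1 with replicate 2 and 2 with the transient list. With scores of at least 100 in the other list, where fewer peaks remain, median distances were 448.9 kb to Phc1-sg1, 181.3 and 166.2 kb to replicates 1 and 2, 503.9, 15011 and 17079 kb at 2, 0.2 and 0.02 ug, and 91.5 kb to the transient list. Of Phc1-sg2 peaks, 11.2% had a peak of either 20 ug library within 10 kb; with 1 library left out the share was 8.30 to 9.05%.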

Other observations

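Along the chromosomes, from the start to the end of each span in 3 equal parts, the Phc1-sg2 list held 182 peaks (27.5%, exact 95% interval 24.1 to 31.0%), 230 (34.7%) and 251 (37.9%, 34.2 to 41.7%). Each span began at the first base of the chromosome, whether or not peaks can be called there. No other list was divided in this way, so the order of the parts cannot be called particular to Phc1-sg2. Against the 3 Nanog-sg2 lists, of 20, 26 and 26 peaks at 10, 20 and 40 ug, no Phc1-sg2 peak lay within 10 kb, and 1, 2 and 0 lay within 100 kb, the nearest at 42.4 kb. The 3 peaks of the transient input were at least 291.0 kb from any Phc1-sg2 peak.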
